A study of Mus musculus with 8 samples.

Results

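The matrix metalloproteinases Mmp2, Mmp9, Mmp11, Mmp13, Mmp14 and Mmp16 and the tissue inhibitors Timp1, Timp2, Timp3 and Timp4 were read in palatal shelves of mouse embryos. These 10 genes are 10 of 18193 genes with a probe set of their own on the array, and every probe set annotated with exactly 1 of these symbols was taken, 26 in all. RNA came from shelves of embryonic day 14.5, when the shelves of the upper jaw have risen above the tongue and fuse along the midline. The tested embryos carried the genotype R26Pax3/Pax3 (replicates 1, 3, 4 and 7), and wild type embryos gave replicates 2, 6, 8 and 11, so there were 4 arrays in each group. All embryos were of a C57BL/6 X SV129 cross. R26 is the Rosa26 locus, widely used to carry inserted sequences, and R26Pax3 is named for Pax3, a paired-box transcription factor of neural crest and muscle precursors. The labels name no Cre line or other driver, do not say which cells of the shelf used the allele, and do not say whether a sample was 1 embryo or a pool.

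Matrix metalloproteinases are zinc-dependent proteases that cut collagens, other matrix proteins and cell surface proteins. They are made as inactive precursors and are activated by removal of a propeptide. TIMPs bind the active site and block it, and Timp2 also bridges the precursor of Mmp2 to the membrane protease Mmp14, which then cuts it. In the mouse palate, Mmp13 and Timp2 are known to be made in the medial edge epithelium under control of TGF-beta 3, and matrix turnover accompanies fusion and the start of bone formation in the shelf.

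Promoter sequence is shown for 2 members, Timp1, the member whose genotype groups did not overlap, and Mmp13, whose signal spread over the widest range of the genes with 1 probe set. Each window holds 250 bases before and 50 after the annotated start, from RefSeq on build GRCm38.p6, 5′ to 3′ on the gene's strand. Capitals mark matches on either strand to an AP-1 site with the letters TGANTCA, to a GC box with the letters GGGCGG, to a TATA box with the letters TATAAA, to a RUNX site with the letters TGTGGT, or to a Pax paired-domain core with the letters GTCACG.
Timp1, chrX:20869916-20870215, plus strand: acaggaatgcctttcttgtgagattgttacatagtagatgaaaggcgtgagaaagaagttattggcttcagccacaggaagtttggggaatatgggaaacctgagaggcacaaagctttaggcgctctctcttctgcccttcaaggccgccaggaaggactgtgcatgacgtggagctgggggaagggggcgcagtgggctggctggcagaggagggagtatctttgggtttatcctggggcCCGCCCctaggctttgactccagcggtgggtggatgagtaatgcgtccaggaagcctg
Mmp13, chr9:7272264-7272563, plus strand: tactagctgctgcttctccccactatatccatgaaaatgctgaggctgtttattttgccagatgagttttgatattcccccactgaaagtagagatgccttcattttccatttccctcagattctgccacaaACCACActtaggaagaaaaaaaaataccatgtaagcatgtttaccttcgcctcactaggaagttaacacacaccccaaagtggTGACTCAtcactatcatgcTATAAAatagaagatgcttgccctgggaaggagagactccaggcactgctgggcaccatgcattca

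The Timp1 window held a GC box, whose first base lies at -8 from the start, and the Mmp13 window held a RUNX site at -118, an AP-1 site at -35 and a TATA box at -16. Of 32851 promoter windows in the table, 7.81% held an AP-1 site, 35.7% a GC box, 13.6% a TATA box, 16.8% a RUNX site and 8.22% a Pax core. Promoters were found for 7 of the 10 genes. Mmp14, Mmp11, Timp2 and Timp3 held GC boxes and no TATA box or AP-1 site by these letters, and Timp4 held none of the 5 motifs. Mmp14 also held a RUNX site at -114. These matches are a description of the letters and were not tested as sites. Timp1 lies within the gene Syn1, Timp3 within Syn3 and Timp4 within Syn2, and these synapsin genes encode proteins of synaptic vesicles.

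The genotype and the tissue were checked first. Pax3 read 619 ± 88.8 in R26Pax3/Pax3 shelves, against 162 ± 14.6 in wild type shelves (SD, n = 4 each) on its brightest probe set, without overlap. Of 8 markers of palate mesenchyme, 8 were above the filter on dim signals, and their summed signal lay between 7439 and 8148 in R26Pax3/Pax3 and between 7338 and 8103 in wild type. Prrx1, with a mean of 3008 in both genotypes, gave the largest part of that sum. Summed signals of other tissues were less even. For skeletal muscle markers they were 718 to 5614 in R26Pax3/Pax3 and 2476 to 6502 in wild type. For epithelium markers they were 3957 to 5455 in R26Pax3/Pax3 and 3592 to 4410.3 in wild type. The median signal of an array lay between 43.5 and 44.9, and each array was scaled to the same trimmed mean of 150. Over the array, 4 of 27021 tested probe sets (0.0148%) differed between genotypes at an adjusted p of 0.05 in limma.

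No metalloproteinase or TIMP differed between genotypes by that test. Of the 26 probe sets, 23, from 9 genes, passed the filter, and limma called 0 of these 23, against 0.0148% of all tested probe sets. None of them was called lower, against 0.00740% of all, and none was called higher, also against 0.00740%. At an unadjusted p under 0.05 there was 1 of the 23, Timp1, against 4.86% of all tested probe sets. The difference is given as log2 of the signal plus 16, R26Pax3/Pax3 minus wild type, and it lay between -0.36 and 0.17 over the 23. It was below 0 for 18 and above 0 for 5, with a median of -0.08, while the median over all tested probe sets was 0.0009 and 49.7% of them were below 0. This sign count is not a count of independent measurements, because several probe sets read the same gene and the arrays are shared. The median was 0.06 within the first 4 arrays deposited and -0.18 within the last 4, each with 2 arrays of either genotype. The 95% intervals from limma lay within 0.5 log2 units of 0 for 16 of the 23 and within 1 unit for 23 of 23.

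**Figure D1:**
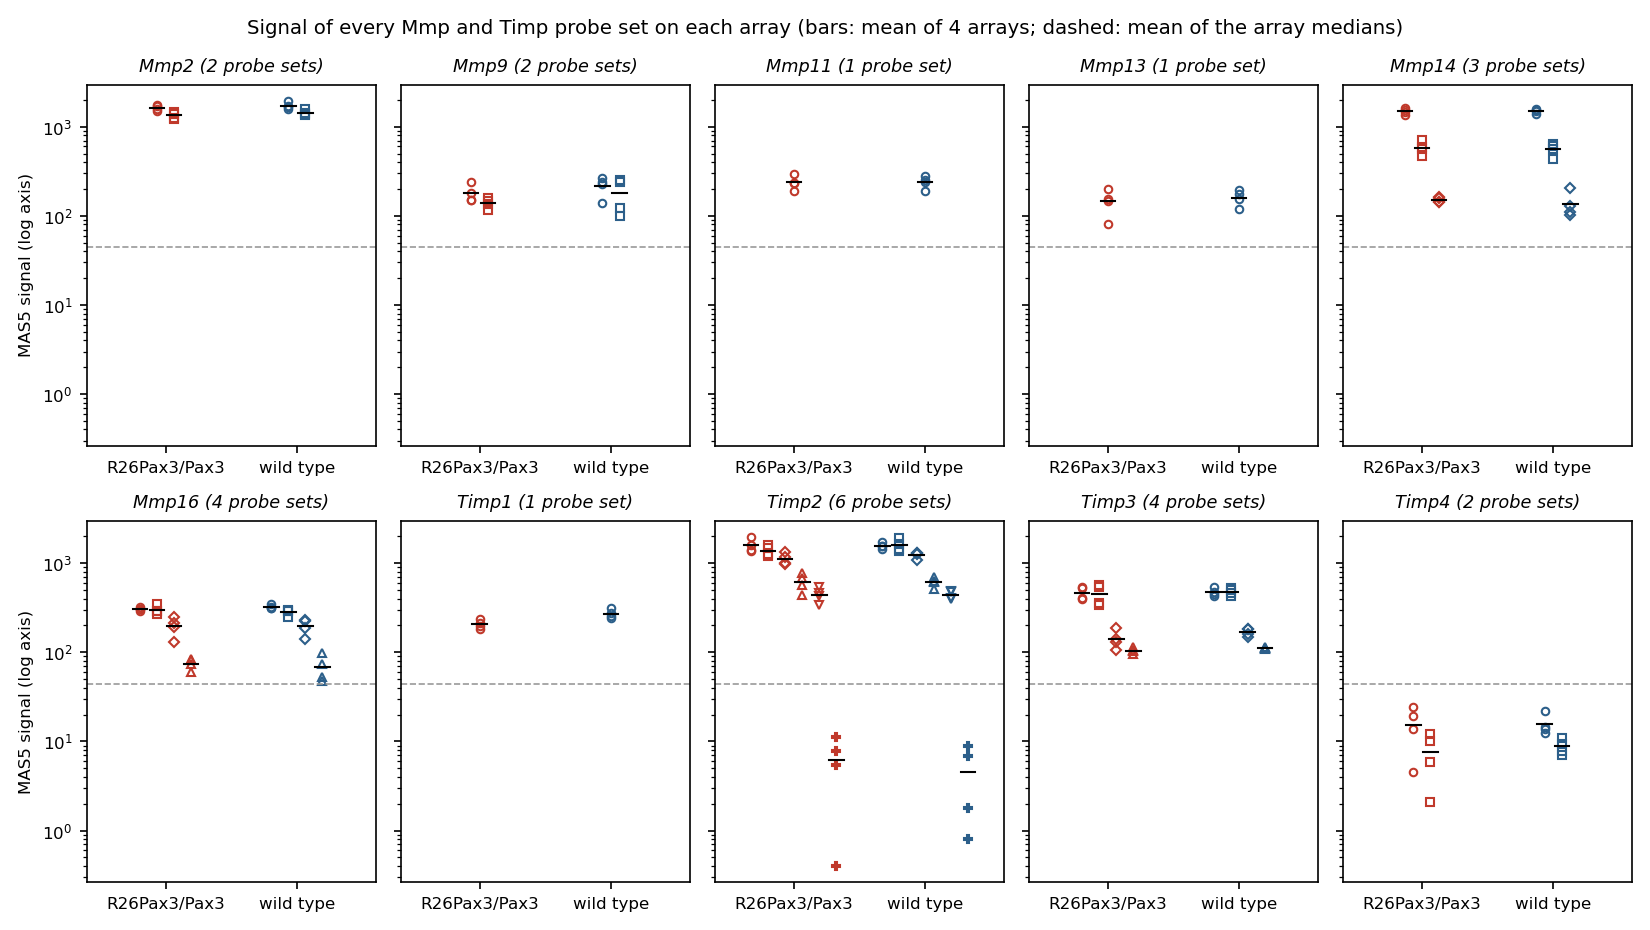
MAS5 signal of each of the 26 probe sets on each of the 8 arrays, on a log axis, with R26Pax3/Pax3 in red left of wild type in blue; symbols separate the probe sets of a gene, black bars are means of 4 arrays, and the dashed line is the mean of the array medians. The probe sets of Timp4 and 1 probe set of Timp2 lie below that line on all 8 arrays, and the ranges of the genotypes overlap for all others except Timp1.

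**Figure D2:**
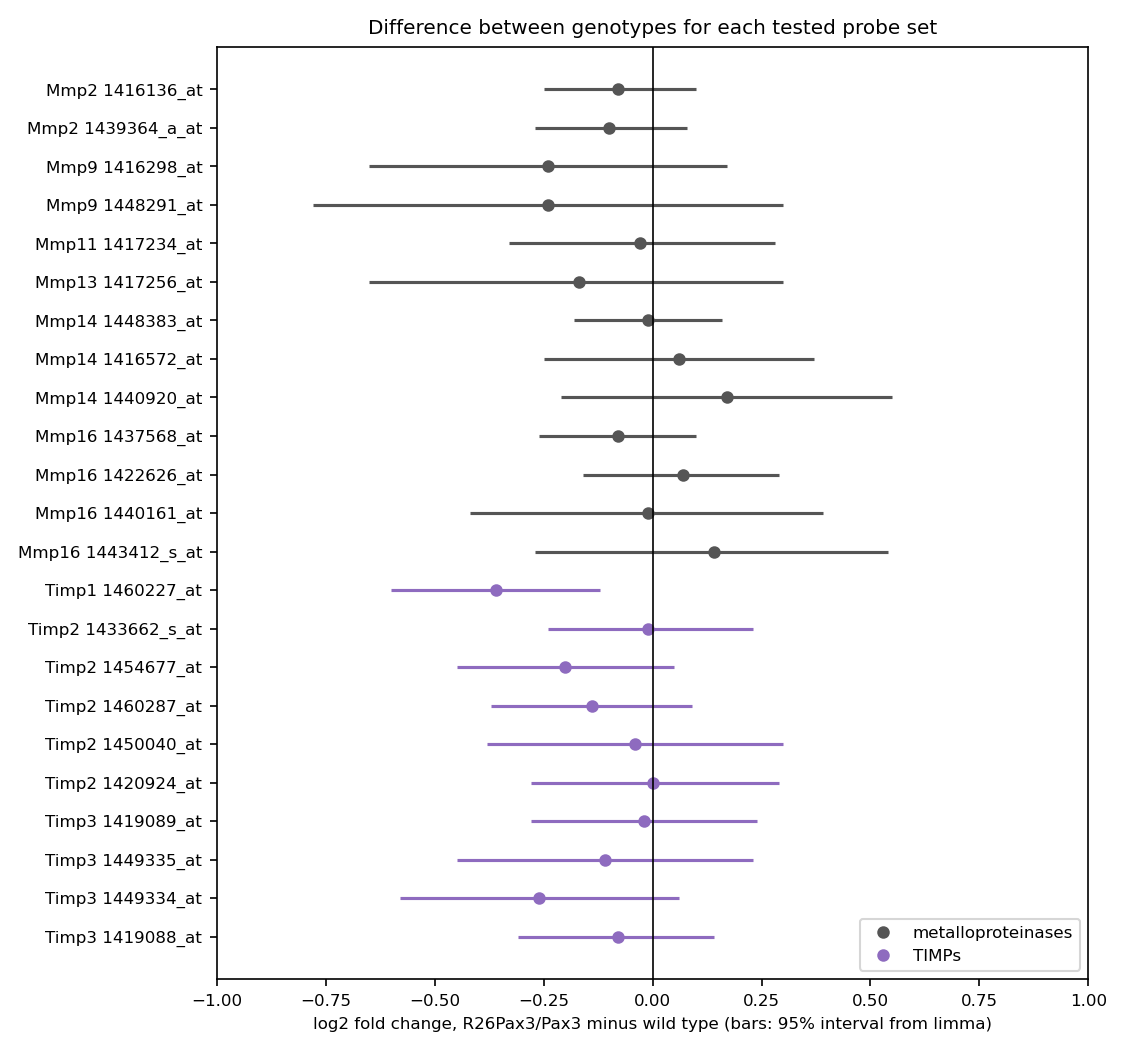
Log2 fold change of the 23 tested probe sets, R26Pax3/Pax3 minus wild type, with 95% intervals from limma as bars. The interval of Timp1, from -0.60 to -0.12, is the one that does not reach 0 before adjustment for the number of probe sets.

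Timp1, a secreted inhibitor of most metalloproteinases, had the largest difference among the 23. Its probe set, 1460227_at, read 238.3, 183.3, 211.5 and 199.8 in R26Pax3/Pax3 replicates 1, 3, 4 and 7, against 275.7, 240.2, 256.7 and 312.1 in wild type replicates 2, 6, 8 and 11. The highest R26Pax3/Pax3 array lay just below the lowest wild type array, so the groups did not overlap, which was also the case for 2.73% of all tested probe sets in either direction and for 1.34% with R26Pax3/Pax3 lower. The means were 208 ± 23.1 in R26Pax3/Pax3 shelves, against 271 ± 30.9 in wild type shelves (SD, n = 4 each), a ratio of 0.77. The log2 fold change was -0.36 (SE 0.110, 95% interval -0.60 to -0.12), which missed the threshold after adjustment over the array (limma adjusted p = 0.863, rank 227 of 27021 by p). The exact permutation test over the arrays gave p = 0.0286, two-sided, the smallest it can give with 4 against 4. Because the groups did not overlap, it could give no other value, so it adds nothing to that lack of overlap. It is also not adjusted for picking Timp1 among the 23.

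The Timp1 difference was -0.23 within the first 4 arrays deposited and -0.48 within the last 4. Because every R26Pax3/Pax3 array lay below every wild type array, the sign could not differ between these parts. Timp1 lies on the X chromosome, and Xist, the RNA that silences an X chromosome in female cells, split the arrays: it read 4200.5 to 5882.0 on 5 arrays and 39.0 to 64 on R26Pax3/Pax3 replicates 1 and 7 and wild type replicate 11. This check was chosen after the values were seen. Among the arrays with high Xist, Timp1 read 183.3 and 211.5 in R26Pax3/Pax3, against 240.2, 256.7 and 275.7 in wild type, a log2 difference of -0.36. Among those with low Xist it read 238.3 and 199.8 in R26Pax3/Pax3, against 312.1 in wild type. With Xist level as a block the log2 fold change was -0.40. The sign of the differences by Xist level was fixed in the same way.

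Markers of bone cells are given beside Timp1. Of 6 measured osteoblast markers 6 were lower (median log2 fold change -0.41), where 51.0% of all tested genes were lower. None was called, against 0.0162% of all tested genes. Their summed signal was 7063 to 8338 in R26Pax3/Pax3 and 8132 to 10649 in wild type, most of it from Ibsp. Ibsp had a log2 fold change of -0.09, Alpl of -0.25 and Sp7 of -0.27. Ifitm5, a membrane protein of osteoblasts, had the smallest p of the 6 and was the one without overlap, with a log2 fold change of -0.55 (limma adjusted p = 0.573). The groups did not overlap for 3.22% of all tested genes. Phex and Dmp1, proteins of osteoblasts and osteocytes, had log2 fold changes of -0.69 (limma adjusted p = 0.602) and -0.78 (limma adjusted p = 0.907). None of the osteoblast markers lay below the array medians on all 8 arrays. In whole shelves, fewer cells of a type and less RNA per cell cannot be told apart, and the part of bone cells in the Timp1 difference was not tested.

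Timp2, the inhibitor that also helps activate Mmp2, had 6 probe sets, of which 5 were tested. The brightest, 1433662_s_at, averaged 1582 ± 266 in R26Pax3/Pax3 shelves, against 1575 ± 118 in wild type shelves (SD, n = 4 each), with a log2 fold change of -0.01 (95% interval -0.24 to 0.23). Its suffix marks probes that can be shared with other transcripts. The second, 1454677_at, read 1582.3, 1471.5, 1284.4 and 1214.6 in R26Pax3/Pax3 replicates 1, 3, 4 and 7, against 1897.7, 1455.9, 1381.7 and 1664.0 in wild type replicates 2, 6, 8 and 11, and the groups overlapped. Its genotype difference of -0.20 in log2 units (SE 0.113, 95% interval -0.45 to 0.05) was made up of 0.10 within the first 4 arrays and -0.50 within the last 4. The remaining 3 tested probe sets had log2 fold changes of -0.14, -0.04 and 0.00. The value of 0.00, on 1420924_at, joined 0.27 within the first 4 arrays and -0.26 within the last 4, and that of -0.04, on 1450040_at, joined 0.22 and -0.29. The sixth, 1437081_at, read 0.4 to 11.2 in R26Pax3/Pax3 and 0.8 to 8.9 in wild type, below the median of every array, and cannot be told from background.

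Timp3, an inhibitor that stays bound to the matrix, had larger differences by order of deposit than by genotype on its 3 brightest probe sets, none past the test. Its brightest probe set, 1419089_at, read 539.2, 528.2, 408.9 and 394.7 in R26Pax3/Pax3 replicates 1, 3, 4 and 7, against 425.2, 475.9, 536.4 and 450.5 in wild type replicates 2, 6, 8 and 11. The log2 fold change between genotypes was -0.02 (SE 0.119, 95% interval -0.28 to 0.24). The last 4 arrays deposited read 394.7 to 450.5, all below the first 4 at 475.9 to 539.2. In the fit with genotype, the log2 difference of the last 4 minus the first 4 was -0.30 (SE 0.0838, limma adjusted p = 0.303).

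On Timp3 1449335_at, the next brightest, the arrays split in the same way, with 340.8 to 466.6 on the last 4 arrays and 498.4 to 575.2 on the first 4, a log2 difference of -0.41 (SE 0.104, limma adjusted p = 0.252). Its genotype difference was -0.11 (95% interval -0.45 to 0.23). The third, 1449334_at, had a genotype difference of -0.26 (SE 0.146, limma adjusted p = 1). Its difference by deposit order was -0.32 (SE 0.116, limma adjusted p = 0.451), and the arrays overlapped. The dimmest, 1419088_at, had -0.08 by genotype and -0.04 by deposit order. By deposit order, 3 of the 23 probe sets did not overlap, against 5.14% of all tested probe sets. They were Timp3 1419089_at and 1449335_at, with the last arrays lower as in 2.29% of all, and 1 probe set of Mmp14. None of the 23 was called by limma, against 0.148%. The labels do not name the order of deposit as a batch.

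**Figure D3:**
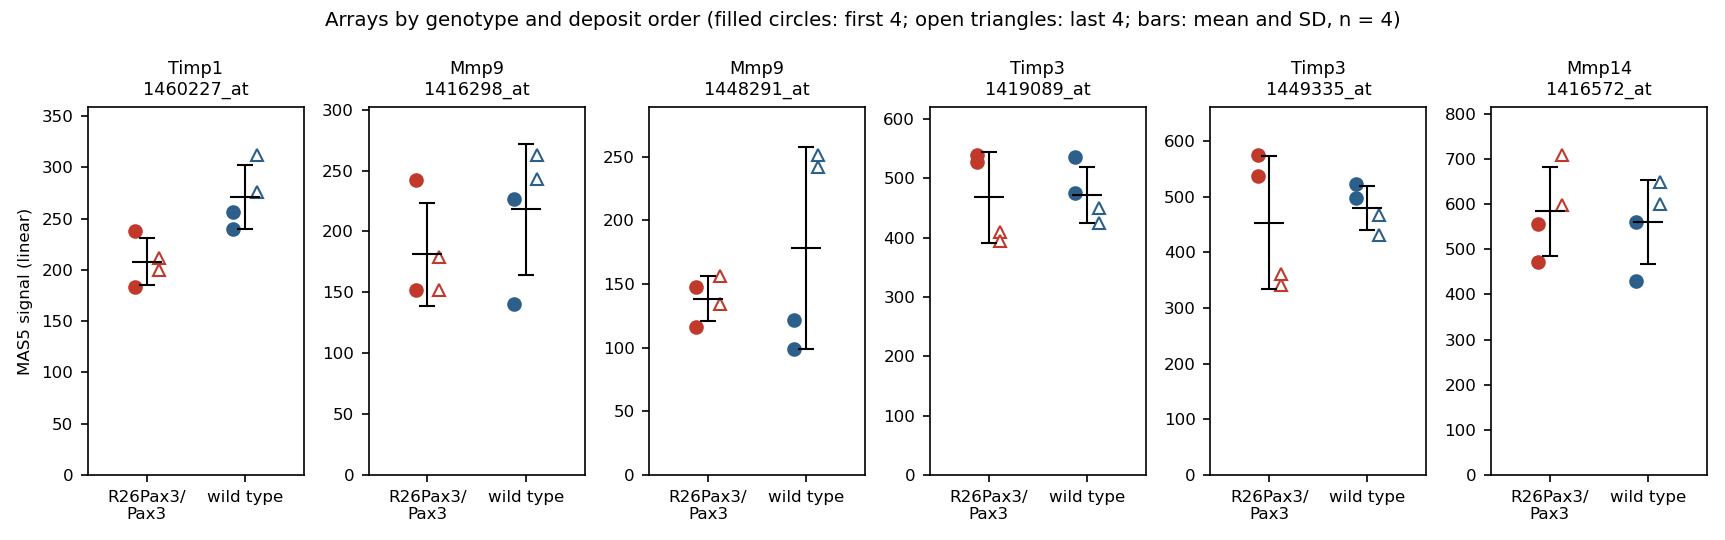
MAS5 signal on a linear axis for 6 probe sets, R26Pax3/Pax3 left of wild type, with filled circles for the first 4 arrays deposited, open triangles for the last 4, and bars for mean and SD. For Timp1 the genotypes do not overlap, while for Timp3 and Mmp14 the triangles and circles separate within both genotypes.

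Timp4, whose transcript is best known from the heart, read too low to be tested. Its brighter probe set, 1450974_at, read 24.1, 13.8, 4.5 and 19.2 in R26Pax3/Pax3 replicates 1, 3, 4 and 7, against 13.7, 12.5, 22.1 and 14.6 in wild type replicates 2, 6, 8 and 11. The other, 1423405_at, read 2.1 to 12 in R26Pax3/Pax3 and 7.1 to 10.9 in wild type. None of its values reached the median signal of the array it came from. Neither probe set passed the filter on dim signals, so no fold is given. Timp4 shares chromosome 6 with Rosa26, and RefSeq places 33 protein-coding genes between them.

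Mmp2, the gelatinase that cuts denatured and basement membrane collagen, was measured with little spread. On 1416136_at it read 1709.5, 1733.4, 1573.3 and 1510.9 in R26Pax3/Pax3 replicates 1, 3, 4 and 7, against 1935.7, 1594.6, 1697.4 and 1672.6 in wild type replicates 2, 6, 8 and 11. The groups overlapped, and the means were 1632 ± 107 in R26Pax3/Pax3 shelves, against 1725 ± 147 in wild type shelves (SD, n = 4 each). Between genotypes the log2 fold change was -0.08 (95% interval -0.25 to 0.10), and that of its second probe set, 1439364_a_at, was -0.10 (95% interval -0.27 to 0.08). These intervals correspond to ratios between 0.84 and 1.07 and between 0.83 and 1.06. Both differences changed sign with the order of deposit, with 0.06 and 0.05 within the first 4 arrays and -0.22 and -0.24 within the last 4. Mmp2 lay above the 97th percentile of all probe sets in both genotypes, at 97.7 in R26Pax3/Pax3 and 97.9 in wild type, a rank that also depends on the probes and does not order genes by transcript number.

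Mmp14, the membrane protease that activates Mmp2 and cuts fibrillar collagen, had nearly equal means. Its brightest probe set, 1448383_at, read 1641.2, 1479.3, 1347.5 and 1538.1 in R26Pax3/Pax3 replicates 1, 3, 4 and 7, against 1500.0, 1389.2, 1600.7 and 1550.3 in wild type replicates 2, 6, 8 and 11. The log2 fold change was -0.01 (SE 0.0798, 95% interval -0.18 to 0.16). The arrays of the 2 genotypes interleave, and the interval corresponds to ratios between 0.88 and 1.12. Probe set 1416572_at had a log2 fold change of 0.06 and the third, 1440920_at, of 0.17 (95% interval -0.21 to 0.55). On the second, the last 4 arrays deposited read 598.8 to 708.9, above the first 4 at 430.1 to 561.4 (log2 difference 0.34, limma adjusted p = 0.363).

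Mmp16, a membrane protease related to Mmp14, was read by 4 tested probe sets. The brightest, 1437568_at, averaged 306 ± 15.1 in R26Pax3/Pax3 shelves, against 325 ± 17.0 in wild type shelves (SD, n = 4 each), with a log2 fold change of -0.08 (95% interval -0.26 to 0.10). The others had 0.07, -0.01 and 0.14, and all 4 overlapped between genotypes. The probe set with -0.01, 1440161_at, had -0.48 within the first 4 arrays and 0.46 within the last 4, so its small mean difference joined opposite ones.

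Mmp11, a stromal protease activated inside the cell by furin-like enzymes, read 192.3, 293.0, 232.7 and 231.9 in R26Pax3/Pax3 replicates 1, 3, 4 and 7, against 279.1, 191.6, 241.8 and 253.6 in wild type replicates 2, 6, 8 and 11. Each genotype had 1 array near 192, and the means were 237 ± 41.5 in R26Pax3/Pax3 shelves, against 242 ± 36.7 in wild type shelves (SD, n = 4 each). Between genotypes the log2 fold change was -0.03 (95% interval -0.33 to 0.28).

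Mmp13, the collagenase of osteoblasts and hypertrophic chondrocytes, varied more between arrays than between genotypes. It read 154.0, 80.2, 144.8 and 200.7 in R26Pax3/Pax3 replicates 1, 3, 4 and 7, against 152.6, 120.1, 176.0 and 193.4 in wild type replicates 2, 6, 8 and 11. The lowest and the highest array were both R26Pax3/Pax3, replicates 3 and 7. The log2 fold change was -0.17 (SE 0.219, 95% interval -0.65 to 0.30), and without R26Pax3/Pax3 replicate 3 it was 0.05. Col10a1, the collagen that marks hypertrophic chondrocytes, read below the median of every array.

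Mmp9, the gelatinase of osteoclasts and leukocytes, had the most uneven wild type arrays of the metalloproteinases on its dimmer probe set, 1448291_at. The wild type SD was 44.5% of the mean there and 24.7% on the brighter probe set. Its brighter probe set, 1416298_at, read 151.9, 242.0, 178.9 and 151.6 in R26Pax3/Pax3 replicates 1, 3, 4 and 7, against 262.8, 140.6, 227.0 and 242.7 in wild type replicates 2, 6, 8 and 11. Between genotypes the log2 fold change was -0.24 (SE 0.188, 95% interval -0.65 to 0.17, limma adjusted p = 1), with 0.09 within the first 4 arrays and -0.57 within the last 4. The groups overlapped, with wild type replicate 6 the lowest array and R26Pax3/Pax3 replicate 3 next to the highest wild type values.

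On 1448291_at Mmp9 read 116.0, 147.7, 156.6 and 134.0 in R26Pax3/Pax3 replicates 1, 3, 4 and 7, against 251.3, 98.7, 121.6 and 241.7 in wild type replicates 2, 6, 8 and 11. Wild type replicates 2 and 11, both among the last 4 deposited, stood well above the other 6 arrays, and the SD was 79.4 in wild type, against 17.7 in R26Pax3/Pax3. In the fit with genotype, the log2 difference of the last 4 minus the first 4 arrays was 0.60 (SE 0.18, limma adjusted p = 0.349). This was the largest such difference of the tested Mmp and Timp probe sets. The log2 fold change between genotypes was -0.24 (SE 0.246, 95% interval -0.78 to 0.30), with 0.23 within the first 4 arrays and -0.71 within the last 4. Without wild type replicate 2 it was -0.05, without wild type replicate 11 it was -0.07, and without wild type replicate 6 it was -0.46.

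Markers of osteoclasts are given beside Mmp9. Acp5, the tartrate-resistant phosphatase of osteoclasts, read 58.4, 125.6, 128.8 and 78.1 in R26Pax3/Pax3 replicates 1, 3, 4 and 7, against 134.1, 71.2, 83.5 and 116.7 in wild type replicates 2, 6, 8 and 11. Its 3 lowest arrays, R26Pax3/Pax3 replicates 1 and 7 and wild type replicate 6, were also the lowest for Mmp9 1416298_at but not for Mmp9 1448291_at. Ctsk, the brightest of the tested osteoclast markers, had a different order, with its highest value, 666.7, on wild type replicate 6 and its lowest, 423.7, on R26Pax3/Pax3 replicate 3. Of 8 osteoclast markers 3 were tested, all lower, where 51.0% of all tested genes were lower. None was called, against 0.0162% of all tested genes. Ctsk had a log2 fold change of -0.32 (SE 0.099). Those of Acp5, at -0.07 (SE 0.233), and Atp6v0d2, at -0.18 (SE 0.271), were smaller than their SE. Atp6v0d2 also read below the array median on 7 of 8 arrays. The 5 markers not tested, Calcr, Ocstamp, Dcstamp, Itgb3 and Oscar, read below the medians of all 8 arrays. The summed signal of the list was 643 to 769 in R26Pax3/Pax3 and 772 to 868 in wild type, most of it from Ctsk. For 8 markers of macrophages and leukocytes it was 1391 to 2273 in R26Pax3/Pax3 and 1573 to 1826 in wild type. Of these 8 markers 5 were higher and 3 lower, with a median log2 fold change of 0.04. The part of these cells in the Mmp9 signal was not tested.

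**Figure D4:**
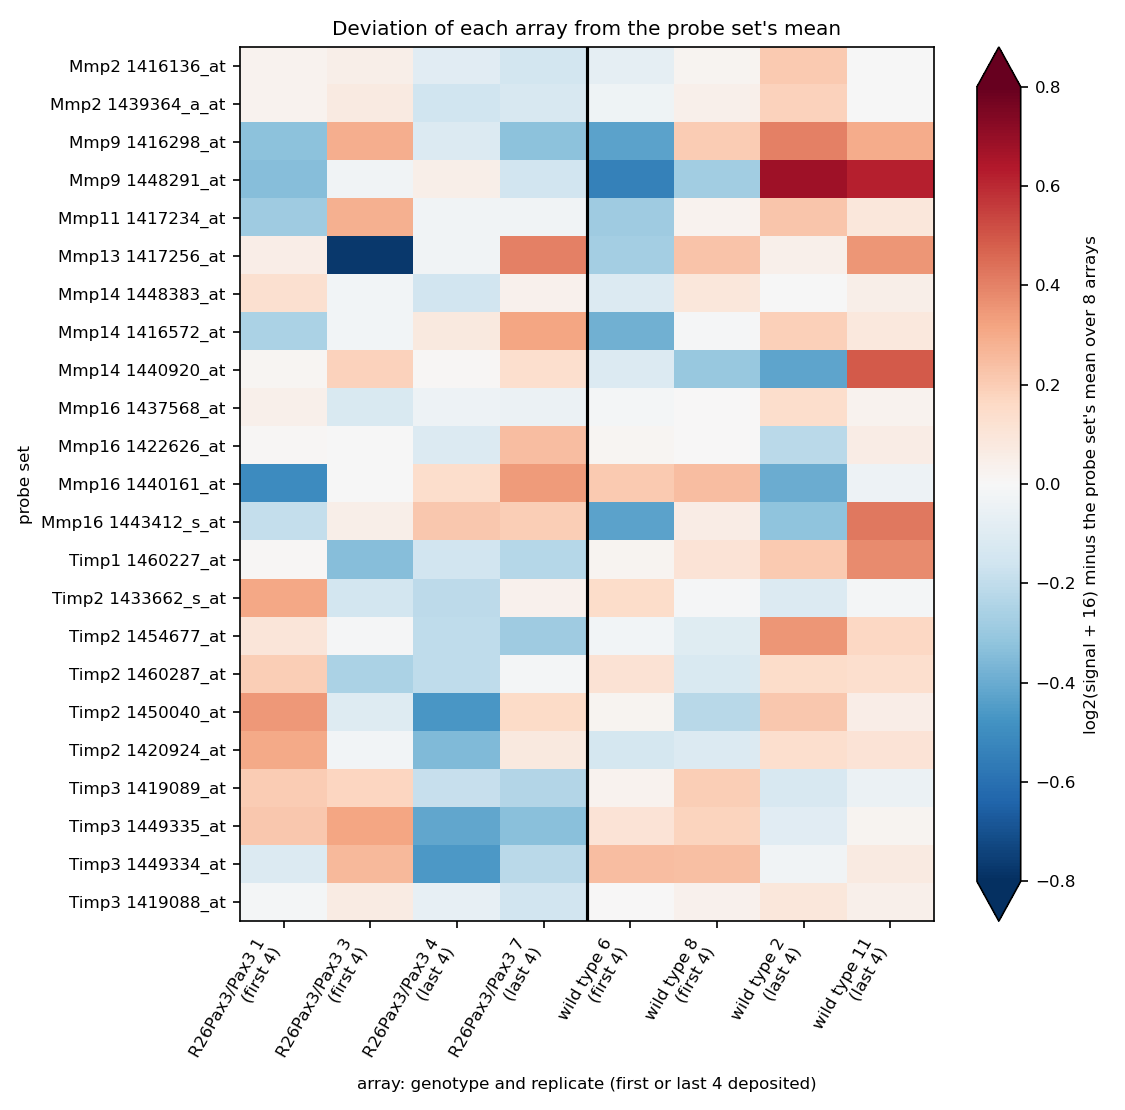
Deviation of log2(signal + 16) from the mean over 8 arrays for each of the 23 tested probe sets (rows) on each array (columns), R26Pax3/Pax3 left of the black line and wild type right of it. For Timp1, R26Pax3/Pax3 replicates 3, 4 and 7 lie below the mean, while R26Pax3/Pax3 replicate 1 and wild type replicate 6 lie close to it, Mmp13 has its lowest value in R26Pax3/Pax3 replicate 3, and Timp3 is low in R26Pax3/Pax3 replicates 4 and 7.

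Probe sets of 1 gene did not always vary together over the 8 arrays. Of 27 pairs of probe sets of the same gene, 3 had a Pearson correlation with an adjusted exact permutation p under 0.05 over the 27. The 2 probe sets of Mmp2 had r = 0.95 (Spearman rho = 0.95, exact permutation p = 0.000322 for r and 0.00114 for rho, adjusted p = 0.00536, and r = 0.91 without the 2 farthest arrays). The 2 brightest probe sets of Timp3 had r = 0.93 (rho = 0.90, exact permutation p = 0.000397 for r and 0.00456 for rho, adjusted p = 0.00536, and r = 0.90 without the 2 farthest arrays). Probe sets 1450040_at and 1420924_at of Timp2 had r = 0.93 (rho = 0.90, exact permutation p = 0.00134 for r and 0.00456 for rho, adjusted p = 0.0121, and r = 0.74 without the 2 farthest arrays).

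The probe sets of Mmp2, and these pairs of Timp3 and Timp2, varied together over the arrays. The 2 probe sets of Mmp9 had r = 0.75 (rho = 0.83, exact permutation p = 0.0309 for r and 0.0154 for rho, adjusted p = 0.139, and r = 0.66 without the 2 farthest arrays). The 3 probe sets of Mmp14 had r between 0.04 and 0.09, and the brightest probe set of Mmp16 had negative r with each of the other 3, between -0.62 and -0.38, none with an adjusted p under 0.05. With the first 4 and the last 4 arrays deposited each centred on their own mean and then pooled, r was 0.97 for the Mmp2 pair, 0.75 for the Timp3 pair, 0.93 for the Timp2 pair and 0.89 for the Mmp9 pair.

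Other genes around the metalloproteinases were read from lists, each gene by its brightest probe set. Of 17 other metalloproteinases 12 had a probe set, and 11 of these, among them Mmp3, Mmp7, Mmp8, Mmp10 and Mmp20, read below the medians of all 8 arrays. Mmp23, a membrane-anchored metalloproteinase, was the exception, with 67.5 ± 4.83 in R26Pax3/Pax3 shelves, against 75.2 ± 9.70 in wild type shelves (SD, n = 4 each) and a log2 fold change of -0.12. Mmp12, the macrophage elastase, passed the filter but read below every array median.

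Among 16 tested activators, receptors and inhibitors, 0 were called in either direction, against 0.0162% of all tested genes. There were 11 lower and 5 higher, where 51.0% of all tested genes were lower. The median was -0.06, where the median of all genes was -0.0031. Pcsk6, a proprotein convertase, averaged 249.9 ± 27.5 in R26Pax3/Pax3 shelves, against 358 ± 58.2 in wild type shelves (SD, n = 4 each) without overlap, which gave a log2 difference of -0.49 (SE 0.119) with a limma adjusted p of 0.573. Plat, the tissue plasminogen activator, had 0.32, the matrix protein Sparc -0.28 and the Wnt antagonist Sfrp1 -0.31, all with overlap and adjusted p of 0.98 or more. Reck, a membrane-bound inhibitor of metalloproteinases, had -0.03, and Bsg, an inducer of metalloproteinases also called basigin, had -0.12.

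Among 19 tested ADAM and ADAMTS proteases and related enzymes, 0 were called, against 0.0162% of all tested genes. There were 15 lower and 4 higher, where 51.0% of all tested genes were lower. The median was -0.08, where that of all genes was -0.0031. Sign counts of these lists are not counts of independent measurements, because the arrays are shared. Ctsk, the collagen-cutting cathepsin of osteoclasts, averaged 493 ± 50.3 in R26Pax3/Pax3 shelves, against 618 ± 57.9 in wild type shelves (SD, n = 4 each) without overlap, which gave a log2 difference of -0.32 (SE 0.0990) with a limma adjusted p of 0.883. The aggrecan-cutting protease Adamts5 had -0.33, the versican-cutting protease Adamts20 -0.23 and Adam19 -0.24, none past the test. Of 14 tested matrix substrates 0 were called, with 13 lower, 1 higher and a median of -0.10, where 51.0% of all tested genes were lower. Those with the smallest p were Col1a1 at -0.33, Eln at -0.34, Col2a1 at -0.74 and Dcn at -0.31. Col2a1 and Acan are also cartilage markers. Of 5 tested cartilage markers 5 were lower, none called (median -0.49), with summed signals over 7 markers of 508 to 1542 in R26Pax3/Pax3 and 831 to 2237 in wild type. Col10a1 and Comp read below the medians of all 8 arrays, and the part of cartilage in the substrate values was not tested. The synapsin genes that hold Timp1, Timp4 and Timp3 had log2 fold changes of 0.55 for Syn1, 0.49 for Syn2 and 0.22 for Syn3, with 0 called. Syn1 read below the array median on 7 of 8 arrays, and its 95% interval ran from -0.18 to 1.28. It read 26.7 to 41.9 in R26Pax3/Pax3, against 6.3, 46.7, 34.9 and 4.3 in wild type replicates 2, 6, 8 and 11. The summed signal of 6 neuron markers was low on the same wild type arrays, 2 and 11, at 281.5 and 246.0. It was 683.9 and 1162.0 on wild type replicates 8 and 6, against 492 to 1016 in R26Pax3/Pax3. Of these 6 markers 6 had positive log2 fold changes, none called (median 0.82), with 0.02 for Map2. Map2 read 173.9 and 116.8 on wild type replicates 2 and 11, against a mean of 168 in R26Pax3/Pax3. The part of these markers in the synapsin values was not tested.

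Over all 54 tested genes of these lists 10 had an unadjusted p under 0.05, against 5.58% of all tested genes, and the groups of 2 did not overlap, against 3.22%. The lists were chosen with earlier results of these data known, and their genes share the arrays. These counts are therefore a description and not a test of the lists.

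**Figure D5:**
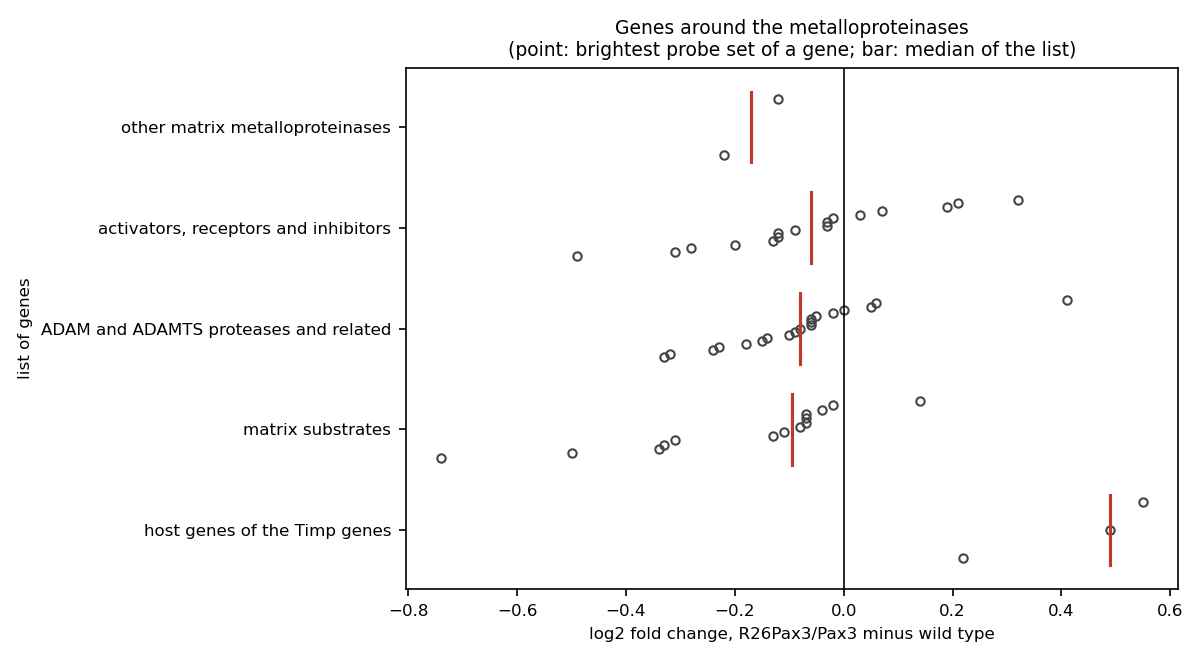
Log2 fold change, R26Pax3/Pax3 minus wild type, of each tested gene of the 5 lists by its brightest probe set, with the median of each list as a red bar. The medians lie between -0.17 and -0.06 for the protease and matrix lists and at 0.49 for the 3 synapsin genes, and 0 genes were called.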

How the data were processed

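Total RNA from palatal shelves, extracted with Trizol and labelled from 6 µg, was hybridised to Affymetrix arrays. The authors deposited 1 linear signal intensity for each probe set. The submitters' processing notes name MAS5 without a version. Each array had the same trimmed mean, so a shift common to most genes cannot be seen. Detection calls were not used here.

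Controls (64 probe sets) were left out. Signals were taken as log2(signal + 16), which understates changes of dim genes, and only probe sets whose mean over the 8 arrays exceeded the 40th percentile were tested. Genotypes, grouped by the titles, were fitted without covariates by limma 3.58.1 (R 4.3.3; lmFit, eBayes with an intensity trend). Benjamini-Hochberg adjustment ran over 27021 probe sets, with calls under 0.05. The labels do not say that samples were separate embryos, so p-values measure only the spread between these samples. The procedure was tested on simulated data with changes larger than any difference of the Mmp and Timp probe sets. That test does not show whether changes of their size would be called. Of the lists, up to 4 genes each by smallest p are named, and others as examples chosen after their values were seen. The genes and lists were chosen with earlier results of these data known. RefSeq identifiers matched for 10 of 10 genes. The number of arrays limits the precision.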

Additional observations from a re-analysis of the deposited data

Results flagged for a closer look

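In 1 of 52 groups of 4 arrays, the lowest or highest array stood apart from the others. On Timp2 probe set 1460287_at, wild type replicate 8 read 1079.3, while the other 3 wild type arrays read 1273.5 to 1302.8. Chance marks about 1 in 20 groups in this way. The log2 fold change of this probe set was -0.14.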

How the results depend on the processing

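No paired analysis was possible because the genotypes share no replicate numbers. Under the alternatives (pseudocount 1 or 64, no filter or the 60th percentile, quantile normalization, no intensity trend, deposit order or, chosen after seeing the data, Xist level as a block, and leaving out each array), 0 Mmp or Timp probe sets and 0 genes of the related lists were called by limma. Without R26Pax3/Pax3 replicate 3, 9 probe sets were called in all, and leaving out each array gave 4 to 9. The median over the Mmp and Timp probe sets was 0.06 among the first 4 arrays deposited and -0.18 among the last 4. Timp1 lay between -0.48 and -0.23 in every alternative, with adjusted p between 0.514 and 1. Since its groups did not overlap, leaving out or splitting arrays could not change its sign. Several values changed sign, not only those near 0. Mmp9 1416298_at and 1448291_at, both at -0.24, had 0.09 and 0.23 within the first 4 arrays deposited. Timp2 1454677_at, at -0.20, had 0.10 within the same arrays. With Xist level as a block, Mmp16 1440161_at had 0.02. Leaving out each array gave -0.13 to 0.06 for Mmp11, -0.34 to 0.05 for Mmp13, -0.06 to 0.15 for Mmp14 1416572_at, -0.05 to 0.04 for Mmp14 1448383_at, -0.15 to 0.15 for Mmp16 1440161_at, -0.11 to 0.06 for Timp2 1433662_s_at, -0.16 to 0.11 for Timp2 1450040_at, -0.09 to 0.05 for Timp3 1419089_at and -0.23 to 0.01 for Timp3 1449335_at. The causes were not tested. Signals below the array medians limit what can be said of Timp4.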

Other observations

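Among genes with 1 symbol, the probe sets most like Mmp13 over the 8 arrays read Ninj1 (r = 0.974), Pds5a (r = 0.965) and Hsbp1 (r = 0.953). These are the highest of 22777 probe sets compared, over 8 arrays that share their scaling, and are a description. Mmp13 was the member whose brightest probe set ranged over more than 1 log2 unit, and no other member was compared in this way.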
